A study of Mus musculus with 9 samples.

Results

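The nuclear-encoded subunits of respiratory complexes II to V were examined in midbrain tissue of mice that lack DJ-1, the product of Park7. Members were the protein-coding genes named Sdha to Sdhd, Cyc1 or Cycs, or with a symbol beginning Uqcr, Cox4, Cox5, Cox6, Cox7, Cox8 or Atp5. Ensembl identifiers were turned into symbols with GENCODE M21, and RefSeq supplied a newer symbol for Usmg5, which it lists as Atp5md. The rule found 51 genes, and 49 of them reached at least 10 counts summed over the 9 libraries, out of 18127 genes that did so and 26602 genes with any count. The 2 that did not were Cox8c and a second Ensembl entry for Atp5o, both without a count in any library. Gm11273 was not taken as a member, since RefSeq lists it as a pseudogene of Cox5b.

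RNA was taken from dissected midbrain including the substantia nigra pars compacta of 4 WT mice (DJ-1+/+) and 5 DJ-1 KO mice (DJ-1-/-), 3 to 4 months of age and bred on a C57BL/6 background, with 1 library per sample. None of the mice received a treatment, and Park7 was disrupted by a targeted allele in the whole body, not in a chosen cell type. Homozygous mice came from breeding heterozygous animals. The tissue was sequenced in bulk, so a lower count can come from fewer cells of a type or from less RNA in each cell, which cannot be told apart. Libraries were made with a 3′ mRNA kit that reads a fragment near the poly(A) tail and tags each molecule with a unique molecular identifier (UMI), and counts of this kind do not grow with transcript length.

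Complex II oxidises succinate and hands the electrons to ubiquinone. Complex III passes them on to cytochrome c, complex IV gives them to oxygen, and complex V uses the proton gradient that complexes III and IV help to build to make ATP. Neurons draw most of their ATP from this chain, and several complex IV subunits exist as isoforms that are used in different tissues.

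The WT libraries held 841974, 879901, 859549 and 886085 counts for replicates 1 to 4, and the DJ-1 KO libraries 999042, 1098125, 969376, 967751 and 1026201 for replicates 1 to 5. Every DJ-1 KO library was deeper than every WT library (exact two-sided permutation p = 0.0159, the smallest that 4 against 5 mice allow), so depth and genotype cannot be told apart by dividing the libraries. Levels are given as cpm, that is counts per 1000000 counts of a library. A level of 3 counts was taken as the smallest that can be shown, which is 2.73 to 3.56 cpm in these libraries and covers counting error only.

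Park7 served as a check of the genotype labels. It had 132, 105, 113 and 118 counts in the WT mice and 23, 29, 14, 19 and 19 in the DJ-1 KO mice. The groups were far apart and no library went against its label. The log2 fold change was −2.71 ± 0.15 (SE) (adjusted p = 7.39e-08, edgeR quasi-likelihood test with Benjamini-Hochberg adjustment over 18127 genes), and Park7 was the 1 gene of the table with an adjusted p under 0.05.

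Some libraries stood apart in tissue markers. WT replicate 1 held 121 cpm of Gabra6, a marker of cerebellar granule neurons, against 0 to 2.33 cpm in the other 8 libraries, 5 of which were at 0. Its summed level of 6 cerebellar markers, with Cbln1 the most abundant, was 831 cpm against 94.2 to 221 cpm. All 6 were lower in DJ-1 KO, 4 of them with an unadjusted p under 0.05, against 2.83% of the 18127 genes tested. WT replicate 4 held 386 cpm of Ttr, the most abundant of 8 choroid plexus markers, and a summed level of these markers of 843 cpm, followed by 390 cpm in WT replicate 1 and 150 to 264 cpm in the other 7 libraries. All 8 were lower in DJ-1 KO, 6 of them with an unadjusted p under 0.05, against the same 2.83% of all genes. Among dopaminergic markers, all 7 were higher in DJ-1 KO, against 51.9% of all genes tested. An unadjusted p under 0.05 was found for 3 of the 7 markers, Th, Slc6a3 and Pitx3, against 2.83% of all genes. Pitx3 was around the floor, with 1, 1, 0 and 0 counts in the WT and 3, 3, 1, 6 and 1 in the DJ-1 KO mice. The sum of the 7 markers was 545, 756, 401 and 324 cpm in the WT mice and 605, 688, 661, 782 and 560 cpm in the DJ-1 KO mice, with Ddc the most abundant gene. WT replicates 1 and 4 and DJ-1 KO replicate 5 had 0, 1 and 2 counts of Xist and 121, 113 and 152 counts of the Y-linked Ddx3y, and the other 6 libraries at least 146 counts of Xist. Whether these differences in tissue and sex took part in the subunit results was not tested beyond the fits given with them.

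The scale of the counts also bears on how subunits can be compared. The largest count of any gene in any library was 1359, and only 63 genes had a mean above 300 counts, while 3330 genes lay between 100 and 300 counts. Of the 49 subunits, 38 fell in that narrow band. mt-Co1, a catalytic subunit of complex IV from the mitochondrial genome, had 340 to 417 counts, less than 2 times the level of Cox6c. Differences in level between abundant genes are therefore given as counts or cpm and not read as ratios of transcript numbers, and why the upper range is narrow was not tested. The spread within genotype was set against counting error as chi-square per degree of freedom. Its median was 0.877 over the 2442 genes with a mean of 100 to 150 counts and 1.25 over the 888 genes from 150 to 300. Whether the narrow range also shrinks fold changes between genotypes and the spread among mice was not tested.

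At the level of whole complexes the genotypes overlapped. The 49 subunits together took 0.793%, 0.700%, 0.824% and 0.714% of all counts in the WT mice and 0.825%, 0.803%, 0.755%, 0.773% and 0.797% in the DJ-1 KO mice. The lowest shares belonged to WT replicates 2 and 4 and the highest to DJ-1 KO replicate 1 and WT replicate 3. The mean was 0.758% ± 0.0602 (SD, n = 4) in WT and 0.791% ± 0.0272 (SD, n = 5) in DJ-1 KO mice, a gap smaller than the spread among WT mice. Complex V took the largest share, 0.305% ± 0.0277 in WT and 0.314% ± 0.0119 in DJ-1 KO mice, over 18 genes. Complex IV followed with 0.243% ± 0.0184 and 0.259% ± 0.0108 over 17 genes, then complex III with 0.140% ± 0.0113 and 0.148% ± 0.00699 over 9 genes. The 4 genes of complex II took 0.0577% in both genotypes (SD 0.00486 and 0.00302), and the single gene of cytochrome c 0.0120% ± 0.000892 and 0.0127% ± 0.000710.

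**Figure D1:**
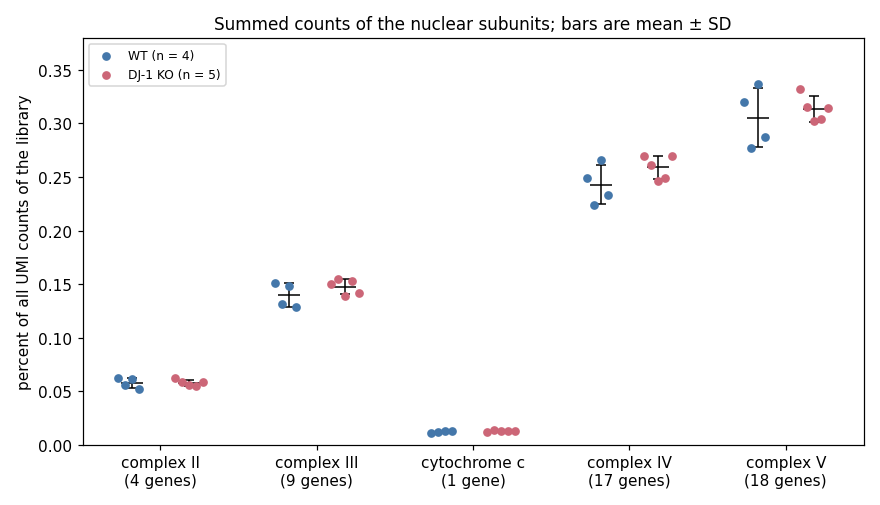
Summed counts of the nuclear subunits of each complex as percent of all UMI counts of a library (y axis) by complex (x axis), with 1 point per mouse, WT in blue (n = 4) and DJ-1 KO in red (n = 5), and bars for mean ± SD. The genotypes overlap in every complex, and complex V holds the largest share at 0.277% to 0.336% in WT and 0.302% to 0.332% in DJ-1 KO mice.

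None of the 49 subunits passed an adjusted p of 0.05 in edgeR's quasi-likelihood test, where 1 of 18127 genes (0.00552%) did, and DESeq2 and edgeR's likelihood ratio test gave 0 subunits as well. At an unadjusted p under 0.05 the test called 2 subunits, Cox7b and Atp5j2, both higher in DJ-1 KO, which is 4.08% of the subunits against 2.83% of all genes tested (1.57% for genes called higher in DJ-1 KO). DESeq2 called 1 subunit and 235 of all genes (2.04% against 1.3%), and the likelihood ratio test 2 subunits and 543 of all genes. This share lies near the background, and with 49 genes it is not a result about the subunits. No subunit had cpm values that failed to overlap between genotypes, while 1.25% of all genes did.

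On the count scale described above the fold changes were small, and most leaned towards DJ-1 KO. Of the 49 subunits 35 were higher in DJ-1 KO (71.4%) against 51.9% of all genes tested, with medians of 0.07 and 0.01 on the log2 scale. Among genes with a mean of 100 to 300 cpm, 30 of 38 subunits were higher (78.9%) against 42.6% of the 3669 genes in that range, with medians of 0.07 and −0.01. A size under 0.25 on the log2 scale was found in 45 of the 49, where the median standard error was 0.08. By complex, the number higher in DJ-1 KO was 2 of 4 in complex II, 7 of 9 in complex III, 14 of 17 in complex IV and 11 of 18 in complex V, and Cycs was higher. The lean rested in part on 1 mouse: without WT replicate 2 the median fell to 0.01 and 26 of 49 were higher, whereas without WT replicate 3 the median was 0.10 with 40 higher and 7 called (14.3%, against 3.41% of all genes in that fit). WT replicate 2 also had the lowest sum of 6 oligodendrocyte markers, 1720 cpm against 1861 to 2221 cpm in the other libraries. Its sum of 5 astrocyte markers was the lowest too, 651 cpm against 691 to 777 cpm. Whether these levels took part in the lean was not tested. The number called was 5 without DJ-1 KO replicate 3 (10.2% against 2.46%), 0 without DJ-1 KO replicate 4 (548 of 17848 genes in that fit had an unadjusted p under 0.05), and 1 (2.04%) without WT replicate 2 or 4 or DJ-1 KO replicate 1 or 2, where 4.1%, 3.21%, 2.52% and 1.9% of all genes were called. Without WT replicates 1 and 4, the libraries with cerebellar and choroid plexus genes, the median was 0.07 with 33 higher.

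**Figure D2:**
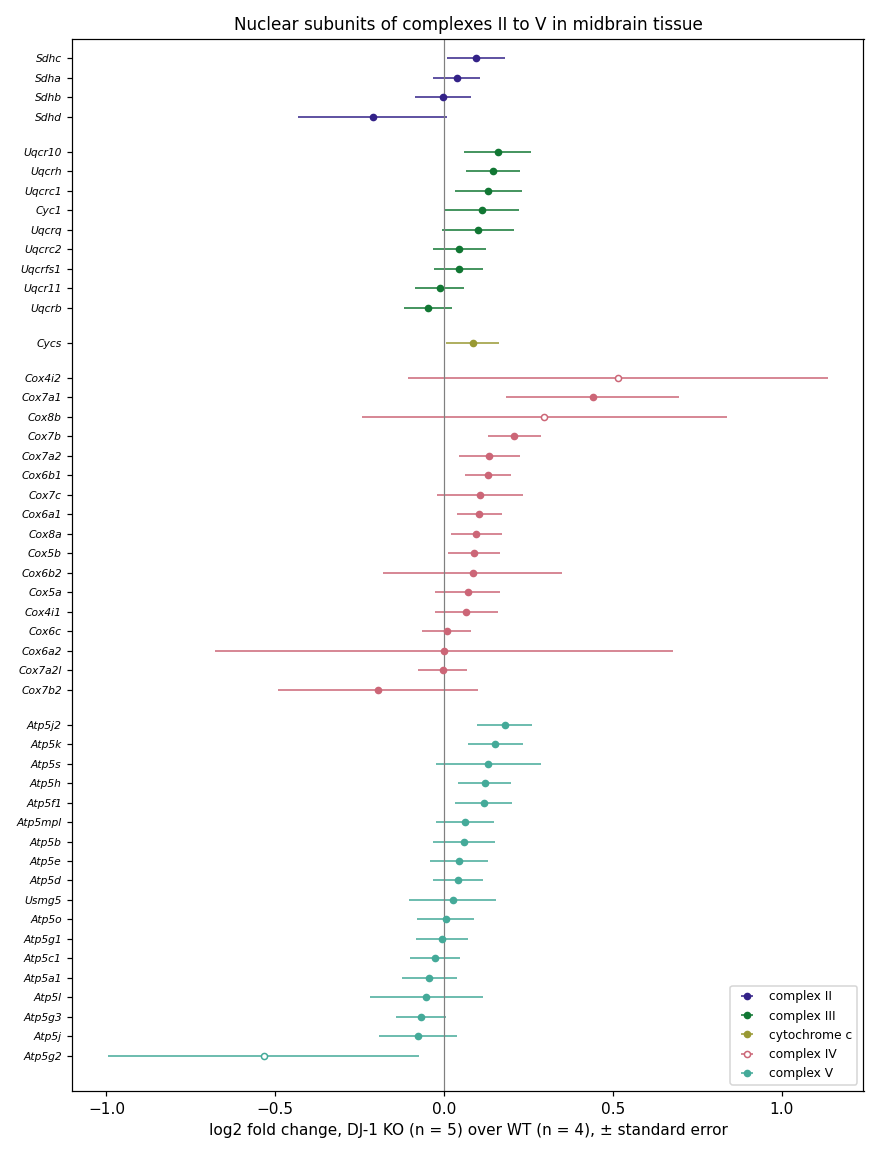
Log2 fold change of DJ-1 KO over WT (x axis) of each of the 49 subunits (y axis), with bars for the standard error worked out from the edgeR test, coloured by complex, open circles for genes with a mean under 10 cpm. Most points lie between −0.25 and 0.25, and the widest bars belong to Cox6a2, Cox4i2, Cox8b and Atp5g2.

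Complex II is the 1 complex of the chain whose subunits are all nuclear-encoded. Sdha, the flavoprotein that holds the succinate site, had 170, 187, 165 and 156 counts in the WT and 203, 219, 191, 190 and 212 counts in the DJ-1 KO mice. Its level was 196 ± 15.5 cpm in WT and 200.5 ± 4.33 cpm in DJ-1 KO mice, and the log2 fold change of 0.04 was smaller than its standard error of 0.07. Sdhb, the iron-sulfur subunit, lay at 180 ± 12.1 and 179 ± 17.6 cpm. Sdhc, a membrane anchor, lay at 115 ± 7.06 and 123 ± 11.1 cpm with a log2 fold change of 0.09 ± 0.09 (SE). The values of the genotypes overlapped in all 3, and none passed the test even before adjustment.

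Sdhd, the other membrane anchor and a ligand of the complex's haem, varied far more. The gene spans positions 50596357 to 50603812 of chromosome 9, minus strand (GRCm38), and had 101, 44, 90 and 64 counts in the WT mice and 82, 80, 85, 43 and 88 in the DJ-1 KO mice. WT replicate 2 and DJ-1 KO replicate 4 were the lowest of their groups, at 50.01 and 44.4 cpm, and the highest value was 120 cpm in WT replicate 1. The spread within genotype was 6.63 times that of counting error (chi-square per degree of freedom), against 0.518 for Sdha, 1.28 for Sdhb and 0.737 for Sdhc. The groups overlapped widely, with a log2 fold change of −0.21 ± 0.22 (SE) and an exact two-sided permutation p of 0.508. Without WT replicate 2 the log2 fold change was −0.41 and the unadjusted p passed under 0.05, with an adjusted p of 0.997 in edgeR's quasi-likelihood test. It shrank to −0.02 without WT replicate 1, −0.09 without DJ-1 KO replicate 4 and −0.05 without WT replicates 1 and 4, so that single libraries decided its size.

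In complex III the most abundant subunits were Uqcrh, the hinge protein that contacts cytochrome c1, the core protein Uqcrc2, and Uqcrq, a small subunit that lies beside cytochrome b. Uqcrh had 178, 156, 187 and 161 counts in the WT and 226, 247, 193, 221 and 215 in the DJ-1 KO mice. Its level was 197 ± 20.4 cpm against 218 ± 12.8 cpm, with WT replicates 1 and 3 inside the range of the DJ-1 KO mice. The log2 fold change was 0.15 ± 0.08 (SE), and the exact two-sided permutation p was 0.143. The fold change was 0.19 on the log2 scale without WT replicate 3 and 0.18 without DJ-1 KO replicate 3, each with an unadjusted p under 0.05, but 0.09 without WT replicate 2. Uqcrc2 gave 181 ± 20.8 and 187 ± 4.59 cpm, and Uqcrq 167 ± 29.2 and 178 ± 17.5 cpm.

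Cyc1, cytochrome c1, receives electrons from the Rieske protein and gives them to cytochrome c. It had 119, 90, 84 and 100 counts in the WT mice and 131, 140, 128, 98 and 123 in the DJ-1 KO mice. WT replicate 1 was the highest of all libraries at 141 cpm, and DJ-1 KO replicate 4 lay among the other WT mice at 101 cpm. This gave a log2 fold change of 0.11 ± 0.11 (SE), and it was 0.29 with an unadjusted p under 0.05 without WT replicates 1 and 4, where the adjusted p of edgeR's test was 0.999. It was 0.23 when WT replicate 1 alone was left out and 0.30 among the 6 libraries with Xist, also with an unadjusted p under 0.05, but 0.06 without WT replicate 2 and 0.04 without WT replicate 3.

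Uqcr10, a small subunit that lies beside cytochrome c1, had the highest log2 fold change of complex III, 0.16 with a standard error of 0.10. It lay at 159 ± 19.6 cpm in WT and 177 ± 21.2 cpm in DJ-1 KO mice, and without DJ-1 KO replicate 3 its log2 fold change was 0.22 with an unadjusted p under 0.05, but 0.08 without WT replicate 4. Uqcrb, which helps to bind ubiquinone, had the lowest at −0.05 with a standard error of 0.07, followed by the small subunit Uqcr11 at −0.01 with a standard error of 0.07. Across the 9 subunits of the complex, log2 fold changes ran only from −0.05 to 0.16, and none had an unadjusted p under 0.05.

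Cycs encodes somatic cytochrome c, which carries electrons from complex III to complex IV and triggers apoptosome assembly when it leaves mitochondria. It had 92, 102, 108 and 114 counts in the WT and 120, 152, 121, 119 and 132 in the DJ-1 KO mice. The WT mice lay between 109 and 129 cpm and the DJ-1 KO mice between 120 and 138 cpm, so the ranges overlapped. Its log2 fold change was 0.08 ± 0.08 (SE), and the spread within genotype was 0.484 of counting error.

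The most abundant nuclear subunits of complex IV were Cox6c, Cox6b1 and Cox7c. Cox6c, a single-span membrane subunit, had 228, 241, 268 and 228 counts in the WT and 298, 287, 264, 268 and 298 in the DJ-1 KO mice. At 278 ± 23.4 and 280 ± 14.7 cpm the genotypes overlapped, with a log2 fold change of 0.01 ± 0.07 (SE). Cox6b1 faces the intermembrane space where cytochrome c docks. It lay at 243 ± 20.7 cpm in WT and 265 ± 8.23 cpm in DJ-1 KO mice, a log2 fold change of 0.13 ± 0.07 (SE) and an exact two-sided permutation p of 0.0794. Without WT replicate 3 this was 0.18 on the log2 scale with an unadjusted p under 0.05, and without WT replicate 2 it was 0.08.

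Cox7c, another single-span subunit, had 184, 155, 220 and 199 counts in the WT and 259, 262, 234, 161 and 277 in the DJ-1 KO mice. As with Sdhd and the other subunits listed with Usmg5 below, the lowest of each group were WT replicate 2 and DJ-1 KO replicate 4. The spread within genotype was 5.75 times counting error, and the log2 fold change of 0.11 was below its standard error of 0.13. With 1 library left out, the log2 fold change ran from 0.01 to 0.19.

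Cox7b, a small subunit of complex IV whose human counterpart is mutated in a microphthalmia syndrome with linear skin defects, had the smallest unadjusted p of the 49. Its gene (ENSMUSG00000031231) spans positions 106015700 to 106022450 of chromosome X, plus strand, and it was the only X-linked member. It had 149, 165, 193 and 170 counts in the WT mice and 233, 245, 200, 231 and 232 in the DJ-1 KO mice. In cpm these were 177, 188, 225 and 192 against 233, 223, 206, 239 and 226, so that WT replicate 3 lay inside the DJ-1 KO range and the other 3 WT mice below it. The log2 fold change was 0.21 ± 0.08 (SE), the Benjamini-Hochberg adjusted p in edgeR's quasi-likelihood test was 1, and the exact two-sided permutation p was 0.0476. Direction was kept in all 21 alternatives. The unadjusted p was no longer under 0.05 without WT replicate 1 (log2 fold change 0.17), WT replicate 2 (0.18), DJ-1 KO replicate 4 (0.18) or both WT replicates 1 and 4 (0.13), nor among the 6 libraries with Xist (0.13).

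Isoform pairs of complex IV were held at unequal levels. Cox4i1, the general form of subunit 4, lay at 222 ± 25.7 cpm in WT and 231 ± 25.5 cpm in DJ-1 KO mice. Cox4i2, the form known from lung, had 1, 1, 4 and 4 counts in the WT and 7, 1, 3, 4 and 6 in the DJ-1 KO mice, around the floor of detection, and no fold change is drawn from it. Cox6b2, known from testis, lay at 16.2 ± 3.52 and 17.1 ± 4.02 cpm. Cox7b2, the other testis form, had 18, 12, 28 and 26 counts in the WT and 14, 19, 23, 17 and 34 in the DJ-1 KO mice, with a log2 fold change of −0.19 ± 0.30 (SE). With 1 library left out, its log2 fold change ran from −0.42 to −0.02.

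Of the subunit 8 forms, Cox8a, the general one, lay at 196 ± 11.4 cpm in WT and 209 ± 14.6 cpm in DJ-1 KO mice. Cox8b, known from heart and skeletal muscle, had 5, 1, 6 and 5 against 6, 14, 3, 5 and 3 counts. Cox8c, the testis form, had 0 counts in every library. Levels of these 3 can be set side by side because 3′ counts do not grow with transcript length, with the caution on the narrow upper range given above.

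Subunit 7a has a general form, Cox7a2, a heart and muscle form, Cox7a1, and a related protein, Cox7a2l, that joins complexes III and IV into supercomplexes. Cox7a2 had 212, 158, 179 and 165 counts in the WT and 229, 249, 206, 220 and 241 in the DJ-1 KO mice, 207 ± 32.6 against 226 ± 8.26 cpm. WT replicate 1 was the highest of all libraries at 252 cpm while the other 3 WT mice lay below the DJ-1 KO mice. The log2 fold change was 0.13 ± 0.09 (SE), and without WT replicate 1 it was 0.24 with an unadjusted p under 0.05 and an adjusted p of 0.999 from edgeR's test. The unadjusted p also passed under 0.05 with Xist as a covariate (0.19) and without WT replicates 1 and 4 (0.23), whereas the log2 fold change was 0.07 without WT replicate 2 and 0.09 without WT replicate 4. Cox7a2l lay at 147 ± 6.27 and 146 ± 9.55 cpm.

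Cox7a1 had the highest log2 fold change among subunits with a mean of at least 10 cpm, without passing the test. The gene (ENSMUSG00000074218) spans positions 30184144 to 30186078 of chromosome 7, plus strand. It had 22, 21, 47 and 23 counts in the WT mice and 57, 48, 51, 39 and 29 in the DJ-1 KO mice. WT replicate 3, at 54.7 cpm, stood with the highest DJ-1 KO mice, while the other WT mice lay between 23.9 and 26.1 cpm, below the lowest DJ-1 KO mouse at 28.3 cpm. This gave a log2 fold change of 0.44 ± 0.26 (SE), and the exact two-sided permutation p was 0.175. Without WT replicate 3 it was 0.80 and without DJ-1 KO replicate 5 it was 0.56, both with an unadjusted p under 0.05 and adjusted p of 0.999 and 1 from edgeR's test. The unadjusted p was also under 0.05 with no filter on low counts (0.45) and with the replicate block (0.60). The log2 value fell to 0.31 without WT replicate 2 and 0.18 without WT replicates 1 and 4.

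Cox6a2, the heart and skeletal muscle form of subunit 6a, varied more among mice than any other subunit. Its gene (ENSMUSG00000030785) spans positions 128205435 to 128206387 of chromosome 7, minus strand. There were 0, 16, 0 and 63 counts in the WT mice and 4, 9, 26, 8 and 67 in the DJ-1 KO mice. WT replicate 4 and DJ-1 KO replicate 5 were the highest, at 71.1 and 65.3 cpm, and a count of 0 in WT replicates 1 and 3 allows up to 3.56 and 3.49 cpm. The spread within genotype was 35.5 times counting error, and the genotype means were nearly the same at 22.3 and 22.5 cpm, a log2 fold change of −0.00 ± 0.68 (SE). Without WT replicate 4 it was 1.85, and without DJ-1 KO replicate 5 it was −0.95, neither with an unadjusted p under 0.05. Its general counterpart Cox6a1 lay at 215 ± 9.12 and 231 ± 13.5 cpm and varied at 0.596 of counting error.

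Muscle markers were low in every library. Of 5 markers of striated muscle and brown fat, Acta1 was the most abundant, with 5.94, 10.2, 6.98 and 14.7 cpm in the WT mice and 7.01, 6.37, 13.4, 7.23 and 7.80 cpm in the DJ-1 KO mice. It was highest in WT replicate 4 and DJ-1 KO replicate 3. The sum of the 5 ran from 5.94 to 16.9 cpm, also highest in WT replicate 4. In DJ-1 KO replicate 5, the other library with a high level of Cox6a2, the sum was 9.745 cpm. Ckm had 0 counts in 8 of 9 libraries and Ucp1 in all 9. The part of muscle tissue in the spread of Cox6a2 was not tested.

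**Figure D3:**
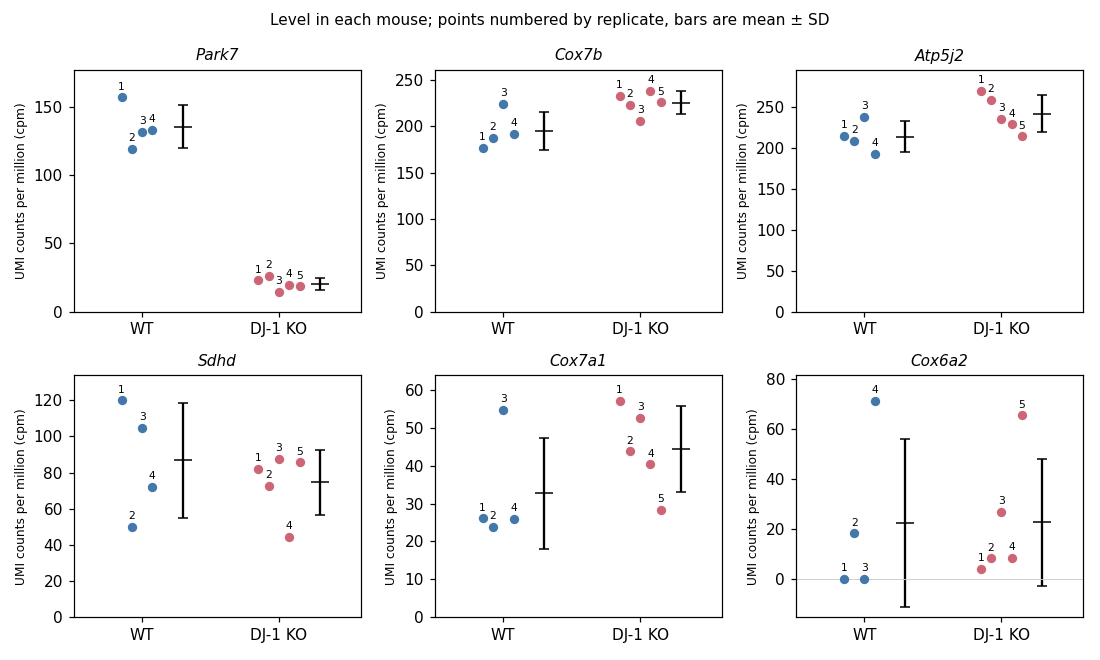
Level in cpm (y axis) of Park7 and 5 subunits in each WT (n = 4) and DJ-1 KO (n = 5) mouse (x axis), points numbered by replicate, with bars for mean ± SD. Park7 separates the genotypes, Cox7b and Atp5j2 overlap in part, and Sdhd, Cox7a1 and Cox6a2 vary within each genotype, with Cox6a2 at 71.1 cpm in WT replicate 4 and 65.3 cpm in DJ-1 KO replicate 5.

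In complex V the catalytic F1 part held the most abundant gene of all 49 subunits. Atp5a1, the alpha subunit, had 292, 261, 300 and 269 counts in the WT and 339, 347, 289, 267 and 349 in the DJ-1 KO mice. The level was 324 ± 27.8 against 314 ± 27.5 cpm, a log2 fold change of −0.04 ± 0.08 (SE). Atp5b, the catalytic beta subunit, lay at 247 ± 37.0 and 257 ± 16.2 cpm. Its log2 fold change of 0.06 (standard error 0.09) became −0.04 without WT replicate 2, which had the lowest count at 174. The remaining F1 genes, Atp5c1, Atp5d and Atp5e, had log2 fold changes between −0.03 and 0.04.

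The c ring, which turns with the flow of protons, is built from 1 mature protein encoded by Atp5g1, Atp5g2 and Atp5g3. Atp5g3 was the most abundant transcript at 259 ± 26.2 cpm in WT and between 230.4 and 255 cpm in DJ-1 KO mice, with a log2 fold change of −0.07 ± 0.07 (SE). Atp5g1 lay at 149 ± 7.45 and 148 ± 11.3 cpm. Atp5g2 had 5, 6, 5 and 5 counts in the WT and 6, 5, 3, 1 and 6 in the DJ-1 KO mice, close to the floor, and its log2 fold change of −0.53 had a standard error of 0.46. Most c ring counts thus came from Atp5g3 and Atp5g1 in both genotypes.

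The peripheral stalk holds F1 still against the ring. Atp5j, coupling factor 6 of this stalk, had 117, 101, 150 and 119 counts in the WT and 148, 145, 138, 103 and 140 in the DJ-1 KO mice. With −0.08 and a standard error of 0.12 it had the lowest log2 fold change of complex V among genes of at least 10 cpm, and it was 0.04 without WT replicate 3. The other stalk genes Atp5o, Atp5f1 and Atp5h had log2 fold changes of 0.00, 0.12 and 0.12.

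Atp5j2 encodes subunit f of the membrane part, at the site where ATP synthases pair. Its gene (ENSMUSG00000038690) spans positions 145183698 to 145192062 of chromosome 5, minus strand. There were 181, 184, 205 and 171 counts in the WT mice and 270, 285, 229, 222 and 220 in the DJ-1 KO mice. In cpm the WT mice had 215, 209, 238 and 193 and the DJ-1 KO mice 270, 260, 236, 229 and 214, so that DJ-1 KO replicate 5 lay just under WT replicate 1 and WT replicate 3 above 3 of the DJ-1 KO mice. The log2 fold change was 0.18 ± 0.08 (SE), the Benjamini-Hochberg adjusted p in edgeR's quasi-likelihood test was 1, and the exact two-sided permutation p was 0.127. The unadjusted p was no longer under 0.05 with RLE size factors (log2 fold change 0.17), DESeq2 (0.17), filterByExpr (0.17) or counts thinned to 841974 per library (0.15). The same held with Xist as a covariate (0.13), among the 6 libraries with Xist (0.15) and without both WT replicates 1 and 4 (0.12). It was also lost without WT replicate 1 (0.18), 2 (0.16) or 4 (0.13) and without DJ-1 KO replicate 1 (0.13), 2 (0.15) or 4 (0.19).

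Atp5k, subunit e, sits next to subunit f in the dimer interface. It lay at 239 ± 25.6 cpm in WT and 265 ± 20.98 cpm in DJ-1 KO mice, with a log2 fold change of 0.15 ± 0.08 (SE) and an exact two-sided permutation p of 0.159. Without WT replicate 3 it was 0.22 and without DJ-1 KO replicate 3 it was 0.18, each with an unadjusted p under 0.05, and it was 0.11 without WT replicate 2 or 4 or DJ-1 KO replicate 4. Atp5s, which carries the family name but encodes coupling factor B, had a log2 fold change of 0.13 ± 0.16 (SE). The other genes of the membrane part, Atp5l, Usmg5 and Atp5mpl, had log2 fold changes of −0.05, 0.03 and 0.06. Usmg5 was lowest in WT replicate 2 and DJ-1 KO replicate 4, at 119 and 141 counts, and was singled out after its values were seen. In cpm the same libraries were the lowest of their groups in Sdhd, Cox7c, Atp5a1, Atp5b, Atp5j, Cox6b1, Cox6b2 and Atp5s, and in none of the remaining subunits.

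Assembly of these complexes needs dedicated chaperones. Of 37 assembly factors, 36 were tested, and 24 were higher and 12 lower in DJ-1 KO with a median log2 fold change of 0.03. An unadjusted p under 0.05 was found for 2 (5.56%), both higher, against 2.83% of all genes. Atpaf2, which binds the alpha subunit during F1 assembly, had 22, 15, 19 and 27 against 33, 34, 38, 43 and 24 counts, a log2 fold change of 0.51 ± 0.23 (SE). Its unadjusted p was not under 0.05 without WT replicate 2 (0.37) or 3 (0.47) or DJ-1 KO replicate 1 (0.52), 3 (0.45) or 4 (0.38), nor with thinned counts (0.49), DESeq2 (0.50) or Xist as a covariate (0.51). Its fold change was larger, at 0.80 on the log2 scale without WT replicates 1 and 4 and 0.91 among the libraries with Xist. Uqcc3, an early assembly factor of complex III, had 51, 71, 55 and 57 against 76, 84, 74, 83 and 87 counts, a log2 fold change of 0.24 ± 0.11 (SE). Its unadjusted p was not under 0.05 without WT replicate 1 (0.20), 3 (0.22) or 4 (0.22) or DJ-1 KO replicate 4 (0.21) or 5 (0.21). The call was also lost with RLE size factors, DESeq2, the likelihood ratio test, no filter, filterByExpr, the replicate block (0.22) and Xist as a covariate, among the libraries with Xist (0.12) and without WT replicates 1 and 4 (0.14). The extremes otherwise were genes near the floor, with Cox16 at 7, 1, 4 and 3 against 3, 3, 2, 0 and 3 counts and Taco1 at 5, 2, 7 and 3 against 7, 8, 6, 8 and 7 counts.

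A list of 9 regulators held factors that act on transcription (Ppargc1a, Ppargc1b, Nrf1, Gabpa, Gabpb1, Esrra, Tfam and Yy1) and Atpif1, which inhibits the ATP synthase protein and not its genes. Of the 9, 4 were higher, with Atpif1 among them at a log2 fold change of 0.01, and 5 lower in DJ-1 KO (median −0.04 on the log2 scale), and the smallest unadjusted p in edgeR's quasi-likelihood test was 0.101, that of Yy1. Yy1, a transcription factor with sites in many respiratory genes, had 108, 114, 106 and 113 counts in the WT and 116, 123, 106, 112 and 123 in the DJ-1 KO mice. In cpm its values did not overlap, with 123 to 130 in WT and 109 to 120 in DJ-1 KO mice, as for 1.25% of all genes. Its counts before division by the library totals did overlap, and their spread within genotype was only 0.104 of counting error. Every DJ-1 KO library was deeper than every WT library, so the gap of Yy1 in cpm cannot be told apart from the difference in depth. The log2 fold change was −0.15 ± 0.07 (SE), the adjusted p of edgeR's test was 1, and the exact two-sided permutation p was 0.0159, the smallest possible. At the other end Esrra, an orphan receptor that works with PGC-1alpha, had a log2 fold change of 0.16 ± 0.16 (SE), which was −0.02 without WT replicate 2.

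Complexes III to V also hold subunits from the mitochondrial genome. Of 6 such genes 5 were tested, and mt-Atp8 was not, with 6 counts in all. mt-Cytb, the cytochrome b of complex III, had 328, 258, 273 and 281 counts in the WT and 324, 297, 266, 286 and 268 in the DJ-1 KO mice, a log2 fold change of −0.21 ± 0.09 (SE) and an unadjusted p under 0.05. Without WT replicate 1 it was −0.12 and no longer under 0.05, and the call was also lost without DJ-1 KO replicate 2 (−0.19), 3 (−0.19) or 5 (−0.18), without WT replicates 1 and 4 (−0.10), among the libraries with Xist (−0.07) and with Xist as a covariate (−0.17). The direction was thus opposite to that of most nuclear subunits of its complex, while mt-Co1 had a log2 fold change of −0.07 ± 0.07 (SE). Nuclear copies were looked for after the values were seen. mt-Cytb shares no run of 50 bases with a GENCODE transcript from outside the mitochondrial genome, but the pseudogene Gm28661 on chromosome 1 shares 99.5% of such runs of mt-Co2 and had 707 counts in all. Its neighbour Gm28437 shares 99.9% of those of mt-Co3 and had 850 counts, and Gm10925 shares 99.5% of those of mt-Atp6. For mt-Co1 the largest share was 28.7%, with Gm29216. Gm10925 had 90, 100, 110 and 89 counts in the WT mice and 119, 104, 83, 103 and 70 in the DJ-1 KO mice, a log2 fold change of −0.24 ± 0.13 (SE). For Gm28437 the log2 fold change was −0.26 ± 0.09 (SE), with an unadjusted p under 0.05. Gm28661 went the other way, at 0.20 ± 0.11 (SE), and was not called. How reads shared with these copies were counted is not given in the sources used here, so the values of mt-Co2, mt-Co3 and mt-Atp6 are uncertain. mt-Co2 had 126 counts in DJ-1 KO replicate 1 and at most 2 in every other library, and mt-Atp6 had 3, 1, 22 and 5 counts in the WT and 31, 17, 81, 2 and 79 in the DJ-1 KO mice. Both had an unadjusted p under 0.05, and with no filter on low counts both passed the adjusted threshold of edgeR's test (adjusted p = 1.41e-05 for mt-Co2 and 4.00e-05 for mt-Atp6, against 1 for each with the filter). The exact two-sided permutation p was 0.365 for mt-Co2 and 0.127 for mt-Atp6. For mt-Atp6 the log2 fold change went from 2.21 to 3.54 without WT replicate 3, and it was not called without WT replicates 1 and 4 (1.64) or among the libraries with Xist (1.29). The call of mt-Co2 was lost with DESeq2 and without WT replicates 1 and 4, filterByExpr left the gene out, and without DJ-1 KO replicate 1 mt-Co2 no longer reached 10 counts and was not tested.

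Complex I passes electrons into the same chain. Of 38 tested nuclear genes with a complex I name, 29 were higher in DJ-1 KO (76.3%), with a median log2 fold change of 0.04. Complexes II to V stood at 71.4% and 0.07, and all genes at 51.9% and 0.01. Of the 38 genes, 2 had an unadjusted p under 0.05 (5.26%, against 2.83% of all genes). They were Ndufb5, with a log2 fold change of 0.21 ± 0.08 (SE), and Ndufa4l2, with at most 6 counts in any library. Ndufb5 was not called without WT replicate 4 (0.17) or WT replicates 1 and 4 (0.13), among the libraries with Xist (0.13) or with thinned counts (0.17). Ndufa4l2, with a log2 fold change of 2.13, was not called without WT replicate 1 (1.80), 4 (1.78) or both (1.28) or DJ-1 KO replicate 5 (1.73), with DESeq2 (2.35) or the replicate block (1.72), or among the libraries with Xist (0.88), and filterByExpr left it out. Ndufa4, which carries a complex I name but is now placed in complex IV, had the lowest log2 fold change at −0.13 with a standard error of 0.12, and −0.25 with an unadjusted p under 0.05 without WT replicate 2 but −0.04 without WT replicate 3.

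The subunit genes are spread over 19 chromosomes, and their promoters are known for shared sites of NRF1, GABP and YY1. Windows of 300 bases around the transcription start, 250 before and 50 after, came from RefSeq (GRCm38.p6) for 38 of the 49 subunits, 41 windows in all. The letters GCGCATG, from the NRF1 site, stood on either strand in 9 of the 41 windows against 3.91% of all 32851 windows and 6.11% of the windows of genes tested. CCGGAAG, from the GABP site, stood in 13 (31.7%) against 8.86% and 14.8%. AAGATGG, from the YY1 site, stood in 4 (9.76%) against 6.34% and 6.54%, and TATAAA, the TATA box, in 4 (9.76%) against 13.6% and 7.86%. GCGCATG can overlap its own reverse strand match. A match of letters is a description and not a bound site, and no binding data were used here.

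The promoters of 4 genes are printed to show both subunits called at an unadjusted p under 0.05, Cox7b and Atp5j2, beside the isoform Cox7b2 and Cox6a1, an abundant subunit of the same complex as Cox7b, with capitals for the motif letters. They lie at chrX:106015450-106015749 on the plus strand, chr5:145191492-145191791, chr5:71548156-71548455 and chr5:115348909-115349208 on the minus strand, in that order. Cox7b held none of the 4 motifs, Atp5j2 the YY1 letters, Cox7b2 the TATA letters as read on the other strand (TTTATA), and Cox6a1 the NRF1 letters on both strands and the GABP letters.
Cox7b: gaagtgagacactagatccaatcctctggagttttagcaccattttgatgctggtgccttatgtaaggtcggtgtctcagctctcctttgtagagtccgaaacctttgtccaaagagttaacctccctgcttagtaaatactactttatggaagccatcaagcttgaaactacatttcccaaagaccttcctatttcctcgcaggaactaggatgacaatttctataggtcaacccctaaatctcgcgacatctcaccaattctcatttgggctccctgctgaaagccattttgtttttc
Atp5j2: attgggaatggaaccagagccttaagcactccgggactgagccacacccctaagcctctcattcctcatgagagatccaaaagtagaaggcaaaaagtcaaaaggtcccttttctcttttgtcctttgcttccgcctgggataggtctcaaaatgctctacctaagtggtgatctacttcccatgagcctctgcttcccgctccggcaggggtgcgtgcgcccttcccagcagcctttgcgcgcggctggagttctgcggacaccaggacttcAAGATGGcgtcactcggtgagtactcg
Cox7b2: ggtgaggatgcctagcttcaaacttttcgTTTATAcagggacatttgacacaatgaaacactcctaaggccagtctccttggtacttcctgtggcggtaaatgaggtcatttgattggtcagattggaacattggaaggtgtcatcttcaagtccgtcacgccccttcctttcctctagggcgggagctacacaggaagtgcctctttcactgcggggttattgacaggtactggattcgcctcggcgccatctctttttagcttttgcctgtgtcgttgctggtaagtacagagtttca
Cox6a1: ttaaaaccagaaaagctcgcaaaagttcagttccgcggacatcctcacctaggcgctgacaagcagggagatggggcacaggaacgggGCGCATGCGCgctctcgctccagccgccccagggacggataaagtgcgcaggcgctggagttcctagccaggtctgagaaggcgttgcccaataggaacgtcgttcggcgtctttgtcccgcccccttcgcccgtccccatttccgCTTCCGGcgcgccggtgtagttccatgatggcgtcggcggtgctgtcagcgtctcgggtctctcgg
The G+C content of these windows was 43.3% in Cox7b, 54.7% in Atp5j2, 48.7% in Cox7b2 and 63.0% in Cox6a1. The subunits with the NRF1 letters (Atp5g2, Atp5k, Atp5l, Cox5b, Cox6a1, Cycs, Sdhb, Uqcr11 and Uqcrc1) had log2 fold changes from −0.53 in Atp5g2 to 0.15 in Atp5k.

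Some values carry limits from the gene models. Of the 49 subunits 15 overlap a gene on the other strand, such as Cox4i1 with Emc8, Atp5j with Gabpa and Usmg5 with Taf5, and 6 overlap one on the same strand, and the use of strand in counting is not given in the sources used here, so reads of such pairs may be shared. Processed copies of subunit genes are common in the mouse genome. The 8 pseudogenes named after subunits had 86 counts in all, of which Atp5l-ps2 had 40 and Cox6c2 33, and Gm11273, the copy of Cox5b, had 116. How reads shared between copies were counted is not given in the sources used here, so values of Cox5b, Atp5l, Cox6c and other genes with near-identical copies are uncertain.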

How the data were processed

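Counts of UMIs per gene were deposited by the authors for 9 libraries, and the submitters' processing notes name fastp 0.20.0, STAR 2.7.3a, featureCounts 2.0.0 of Subread and UMI-tools 1.0.0. A gene not listed for a library was taken as 0. The genes that reached 10 counts in total were fitted with edgeR 4.0.16 (R 4.3.3, limma 3.58.1): TMM scaling, genotype as the only term, quasi-likelihood test, Benjamini-Hochberg adjustment over all 18127 genes. DESeq2 1.42.0 was an alternative. Exact two-sided permutation tests over mice used scipy 1.17.1, with numpy 2.4.6, pandas 2.3.3 and Python 3.11.15. Standard errors are those of the log2 fold change. The fits were also run on simulated counts with known changes larger than those of most subunits, and no result given here rests on that run. Alternatives changed scaling, test, filter, covariates or libraries. Genes named were Park7; subunits with an unadjusted p under 0.05 or without overlap; Sdha to Sdhd, Cyc1 and Cycs; in complexes III to V the 3 subunits of highest mean cpm and, from 10 cpm, the 2 of highest and the 2 of lowest log2 fold change; isoform groups; and, in other lists, genes with an unadjusted p under 0.05 and the extremes. Members and lists were chosen with earlier results of these data known.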

Additional observations from a re-analysis of the deposited data

Results flagged for a closer look

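In 5 of 108 groups of libraries the highest library lay far from the others of its genotype, where chance gives about 1 in 20 groups. Cox7a1 was at 54.7 cpm in WT replicate 3. Uqcrb was at 158 cpm in DJ-1 KO replicate 4, Uqcrq at 208.5 cpm in DJ-1 KO replicate 2 and Cox8a at 235 cpm in DJ-1 KO replicate 5. mt-Co2 was at 126 cpm in DJ-1 KO replicate 1. Libraries far below the others are not in this count, such as Usmg5 at 135 cpm in WT replicate 2 against 199.5 to 205 cpm in the other WT mice.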

How the results depend on the processing

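Of 35 named subunits, 23 kept the sign of their log2 fold change in every alternative in which they were fitted (17 higher and 6 lower in DJ-1 KO) and 12 did not. Alternatives for the genes of the other lists were chosen after seeing the data. The cause of the differences below was not tested, other than that fewer libraries or other genes entered a fit.

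The number of all genes with an adjusted p under 0.05 in edgeR's test was 2 with the likelihood ratio test, 36 with no filter on low counts, 3 among the libraries with Xist, and 1 to 2 when 1 library was left out. The number with an unadjusted p under 0.05 was 235 with DESeq2, 802 with no filter, 338 with filterByExpr, and 338 to 732 with 1 library left out. The number of subunits with an unadjusted p under 0.05 was 1 with RLE size factors, thinned counts, DESeq2, filterByExpr and the libraries with Xist (1.3% to 2.96% of all genes), 3 with no filter (6.12% against 3.01%), and 0 to 7 with 1 library left out (1.9% to 4.1% of all genes). With filterByExpr 46 subunits were tested, without Cox4i2, Cox8b and Atp5g2.

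Signs turned in these fits. With thinned counts Sdhb was at 0.012, Uqcrc2 at −0.01, Cox6a2 at 0.077 and Cox7a2l at 0.036. With no filter Sdhb was at 0.007, Cox6a2 at 0.008, Cox7a2l at 0.006 and Atp5g1 at 0.002. Cox6c was at −0.003 with RLE size factors and DESeq2, and −0.002 with filterByExpr and Xist as a covariate. Cox6a2 was at 0.002 with DESeq2, 0.015 with the likelihood ratio test and 0.70 with Xist as a covariate. Among the libraries with Xist, Sdha was at −0.026, Cox6a2 at 0.345, Cox6c at −0.081, Cox7a2l at 0.005 and Atp5g1 at 0.026. Without WT replicates 1 and 4, Sdha was at −0.01, Cox6a2 at 1.293, Cox6c at −0.063 and Atp5g1 at 0.008.

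With 1 library left out, log2 fold changes ran from −0.012 to 0.072 for Sdha, −0.05 to 0.039 for Sdhb, −0.049 to 0.018 for Uqcr11, −0.015 to 0.118 for Uqcrc2, −0.947 to 1.852 for Cox6a2, −0.058 to 0.17 for Cox6b2, −0.03 to 0.063 for Cox6c, −0.03 to 0.023 for Cox7a2l, −0.187 to 0.506 for Cox8b, −0.04 to 0.131 for Atp5b, −0.045 to 0.029 for Atp5g1, −0.171 to 0.04 for Atp5j and −0.017 to 0.25 for Esrra. Park7 ran from −2.82 to −2.61.

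With the replicate number as a block, 8 genes had an adjusted p under 0.05 and 3 subunits an unadjusted p under 0.05 (6.12% against 3.15% of all genes), Cox7b, Atp5j2 and Cox7a1. Under the block Sdhb was at 0.012, Uqcr11 at 0.003, Cox6c at −0.011, Cox7a2l at 0.023, Atp5g1 at 0.009 and Park7 at −2.68. Libraries with the same number did not clearly deviate together, with correlations of 0.159, −0.011, −0.075 and −0.089 for numbers 1 to 4. No pairing by number was seen, but so few values cannot settle whether the mice were paired. Only number 1 correlated best with its own number.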
